A study of Mus musculus with 6 samples.

Results

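Rhox genes encode homeobox transcription factors of the reproductive tract, and the genes lie side by side in a cluster on the X chromosome. The genes described here were those probe sets of a whole-testis array whose annotated symbol was exactly Rhox5, Rhox6, Rhox9, Rhox11 or Rhox13. The array annotation held 1 probe set each for Rhox5, Rhox6, Rhox9 and Rhox13, 4 of the 5 genes and 4 of 45101 probe sets. No probe set with the symbol Rhox11 was found, so Rhox11 was not analysed here, and neither was any of 27 other Rhox genes that were looked up. Total RNA of whole testis was measured on 6 Affymetrix arrays, 3 of wild-type and 3 of Phf13 knockout testis, from mice 5 weeks old. The product of Phf13 binds methylated histone H3 through a PHD finger. The sources used here do not state how the knockout allele was made, the mouse strain, or whether each array came from another animal. The p-values therefore measure only the spread between these arrays, which may be technical.

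Homeobox proteins bind DNA through a conserved domain, and the Rhox family is known for its expression in testis, epididymis, ovary and placenta. Rhox5, first described as Pem, is the founding member and is made in testis by Sertoli cells, which support the germ cells in the tubule, under control of androgen. Rhox13 is a germ cell gene of spermatogonia and early spermatocytes, whereas Rhox6 and Rhox9 are close relatives best known from placenta and from germ cells. The question is how the level of the Sertoli cell member, and of the germ cell members, compares between testes with and without Phf13.

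The promoter windows of Rhox5 and Rhox13, the brighter pair, are shown. Both genes were higher on every knockout array, as was Rhox9, for which no window was found. RefSeq windows of assembly GRCm38.p6 were found for 3 of the 5 genes (Rhox5, Rhox11 and Rhox13). Each runs 300 bases, from 250 before to 50 after the annotated gene start. Capitals mark matches to the motifs searched, except CpG dinucleotides, which were only counted. The Rhox5 window is chrX:37754358-37754657 and the Rhox13 window is chrX:38120590-38120889, both on the plus strand.
Rhox5: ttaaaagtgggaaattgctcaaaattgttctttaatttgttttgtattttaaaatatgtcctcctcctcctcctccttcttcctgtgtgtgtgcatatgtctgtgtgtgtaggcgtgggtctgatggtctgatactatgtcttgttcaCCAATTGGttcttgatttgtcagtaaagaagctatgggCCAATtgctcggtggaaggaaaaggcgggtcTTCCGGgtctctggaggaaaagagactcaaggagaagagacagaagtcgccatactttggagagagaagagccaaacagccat
Rhox13: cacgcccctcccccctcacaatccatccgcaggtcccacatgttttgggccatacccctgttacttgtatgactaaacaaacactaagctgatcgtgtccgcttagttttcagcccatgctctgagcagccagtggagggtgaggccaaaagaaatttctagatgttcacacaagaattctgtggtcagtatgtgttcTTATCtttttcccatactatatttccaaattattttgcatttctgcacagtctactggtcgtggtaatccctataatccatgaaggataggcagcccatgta
Both strands of each window were searched. The core of sites for GATA factors was searched as GATAA, and 25.4% of 32851 RefSeq windows of this length held it. For ETS factors the word searched was CCGGAA, in 14.9% of windows. The third word was the CCAAT box, in 37.4% of windows. Rhox5 held 1 ETS word, 33 bases before the start and on the minus strand. It also held 3 CCAAT boxes, of which 2 overlap on opposite strands. Rhox13 held 1 GATA factor core, 52 bases before the start and on the minus strand. Neither window held AGGTCA, the half-site of retinoic acid receptors, present in 16.3% of windows. Neither held the TATA box word TATAAA, present in 13.6%. Each window held 5 CpG dinucleotides, against a median of 7. A match is a description of the letters and was not tested as a binding site. Sites of the androgen receptor were not searched. Whether these annotated starts are the ones used in testis was not tested.

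The deposited values are log2 expression values, 1 per probe set, so a difference of 1 is a 2-fold change. Differences below are knockout minus wild type, and adjusted p-values are from limma with Benjamini-Hochberg adjustment over 45037 probe sets. The Phf13 probe set went with the label on all 6 arrays, at 9.47 to 9.56 in wild type and 6.55 to 6.71 in knockout. In all, 45 probe sets passed an adjusted p of 0.05, which is 0.0999% of those tested. The mean of the ribosomal 18S controls split the arrays into 2 sets. It was 12.03 to 12.67 on knockout 1 and the first and second wild-type arrays, and 9.69 to 10.71 on the other 3. Those 3 arrays also carry consecutive codes in their sample titles, and the labels do not say what the codes mean. Actin control signal at the transcript's end minus that at its start was 0.75 to 0.89 in the higher set. In the lower set it was 0.56 to 0.59. Inside each set the knockout arrays had the lower 18S value, whose part in the results was not tested. Marker genes of spermatids averaged 12.44 to 12.53 in wild type and Sertoli cell markers 8.28 to 8.32, while epididymis markers averaged 3.83 to 3.99, near the arrays' lower quartile of 3.66 to 3.76. In whole testis, fewer cells of a type and less RNA per cell cannot be told apart.

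Rhox5, the Sertoli cell member, was higher on every knockout array than on any wild-type array. Its probe set (1423429_at, Entrez gene 18617) read 8.87, 8.87 and 8.94 in wild type and 9.23, 9.29 and 9.43 in knockout. The gap between the groups was 0.29. The mean went from 8.89 ± 0.04 to 9.32 ± 0.10 (SD, n = 3 each). This log2 difference of 0.42 had a 95% confidence interval of 0.22 to 0.63. On the linear scale this is 1.34-fold, or 34.1% more signal, with an interval from 16.2% to 54.8%. The unadjusted limma p was 0.00139 and the adjusted p 0.163, which did not pass. Within the set of arrays with the higher 18S signal Rhox5 differed by 0.36, and within the other by 0.42.

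Rhox13, the germ cell member, was also higher in knockout, with more spread between arrays. Its probe set (1443844_at, Entrez gene 73614) read 7.28, 7.38 and 7.38 in wild type and 7.56, 7.54 and 7.92 in knockout. The groups did not overlap, with a gap of 0.16, and knockout 3 stood well above the other knockout arrays. Wild-type arrays averaged 7.35 ± 0.06 and knockout arrays 7.67 ± 0.21 (SD, n = 3 each). The log2 difference was 0.33, or 1.25-fold, with a 95% confidence interval of 0.06 to 0.60. The unadjusted limma p was 0.0237 and the adjusted p 0.27. Without knockout 3 the difference was 0.20.

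Rhox9 and Rhox6 were dim in both genotypes, with every value between 3.70 and 4.43, below the array medians of 5.22 to 5.29. No background level was used, so whether these probe sets measured transcript was not established. Rhox9 (1449540_at, Entrez gene 104384) read 3.89, 3.94 and 3.93 in wild type and 4.43, 3.95 and 3.95 in knockout. Only knockout 1 stood apart, and the other knockout arrays lay 0.01 above the highest wild-type array. Its difference was 0.19 with a 95% confidence interval of -0.12 to 0.50 (limma adjusted p = 0.543), and 0.03 without knockout 1. Rhox6 (1419018_at, Entrez gene 19202) read 3.89, 3.78 and 4.21 in wild type and 3.71, 3.70 and 3.88 in knockout. These groups overlapped, and the highest array was wild type 3. The difference was -0.20 with a 95% confidence interval of -0.48 to 0.09 (limma adjusted p = 0.495), and -0.07 without wild type 3.

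**Figure D1:**
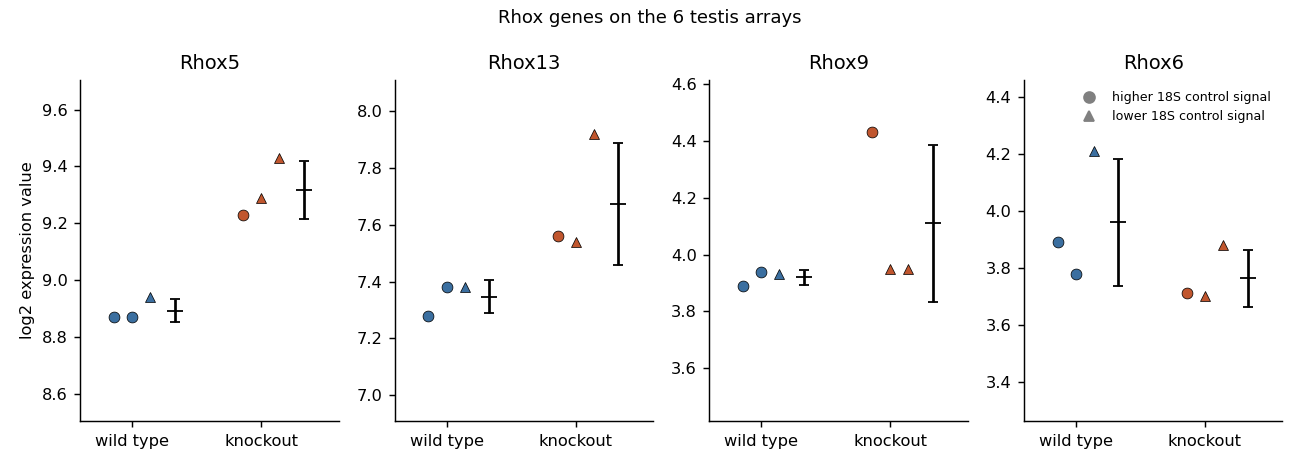
Log2 expression value of each Rhox probe set (vertical axis, the same span of 1.2 in every panel) on the 3 wild-type and 3 knockout arrays. Points are arrays, circles and triangles mark the sets with higher and lower 18S control signal, and bars are the mean ± SD; Rhox5 and Rhox13 were higher on all 3 knockout arrays, while Rhox9 rests on 1 knockout array and the Rhox6 groups overlap.

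Of the 4 genes, 0 passed the adjusted threshold in limma, and 2, Rhox5 and Rhox13, had an unadjusted p under 0.05 with the higher level in knockout. Over all probe sets 6.81% did so, and over the other measured X chromosome genes 46.0%. For Rhox5, Rhox9 and Rhox13, 3 of the 4 genes, all knockout arrays were above all wild-type arrays. This pattern was seen in 8.62% of probe sets and in 41.6% of the other measured X chromosome genes. For Rhox9 the gap was 0.01. Rhox5 and the germ cell members were then set side by side within each array. Rhox5 minus Rhox13 was 1.49 to 1.59 in wild type and 1.51 to 1.75 in knockout, so the groups overlapped and the mean moved by 0.10. Rhox5 minus Rhox9 moved by 0.23, also with overlapping groups. Rhox5 minus Rhox6 was 4.73 to 5.09 in wild type and 5.52 to 5.59 in knockout, without overlap. Whether the Sertoli cell member differed from the germ cell members in its response was not tested.

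Most genes of the X chromosome lay on the same side. Of 613 other measured X chromosome genes, 550 (89.7%) were above 0, with a median difference of 0.27 and quartiles of 0.12 and 0.42. Over the autosomes the median was 0.00, with 8703 of 17404 genes above 0, and the medians of the 19 autosomes ran from -0.01 to 0.02. Of the X chromosome genes 0 passed as higher in limma. Yet 282 (46.0%) had an unadjusted p under 0.05 with the higher level in knockout, against 7.25% of autosomal genes. For 255 (41.6%) all knockout arrays were above all wild-type arrays, against 8.79% of autosomal genes. The X chromosome median was 0.19 within the higher 18S set and 0.28 within the lower, counted over all 617 X chromosome genes.

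Against this chromosome the Rhox5 difference was in the upper part and that of Rhox13 near the middle. Rhox5 lay above 75.4% of the other X chromosome genes and Rhox13 above 59.7%. Among the 386 brighter genes, those with a mean above the median of all probe sets, the median was 0.36, Rhox5 lay above 66.6% and Rhox13 above 45.1%. Among the 227 dimmer genes the median was 0.13, and Rhox9 lay above 61.7%. Rhox6 lay at the lower end, with a higher difference in 611 of the 613 genes. Subtracting the mean of these genes array by array left Rhox5 at 2.97 to 3.00 in wild type and 3.07 to 3.16 in knockout. The groups did not overlap, and the remaining difference was 0.15, against 0.42 before. For Rhox13 the same subtraction left 0.05, with overlapping groups, and for Rhox9 it left -0.08. For Rhox6 it left -0.47, with means of -1.96 ± 0.18 for wild-type and -2.43 ± 0.08 for knockout arrays (SD, n = 3 each). The subtracted mean takes in brighter and dimmer genes alike, whose medians were 0.36 and 0.13. These remainders therefore do not compare a Rhox gene with X chromosome genes of its own level.

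The neighbours of the cluster were also higher in knockout by their median. In the RefSeq gene order, 11 of the 20 genes nearest the cluster, 10 on each side, were measured. All 11 were above 0, between 0.11 and 0.42, with a median of 0.28, and 0 passed in limma. The cluster was taken from the first to the last Rhox locus. Zbtb33 and Tmem255a, the measured genes next after Rhox13, fell inside it and were not among the 20. They differed by 0.43 (SE 0.16) and 0.59 (SE 0.20). At an unadjusted p under 0.05, 3 were higher, against 8.58% of all genes and 46.0% of the X chromosome genes. Gm9, next to the cluster, differed by 0.42 (SE 0.09), Cul4b, a ubiquitin ligase scaffold, by 0.36 (SE 0.08), and Ndufa1, a subunit of respiratory complex I, by 0.28 (SE 0.10). The limma adjusted p of these genes ran from 0.161 to 0.273. Over a wider stretch, 25 measured genes to each side of Rhox5, 44 of 47 other genes were above 0.

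**Figure D2:**
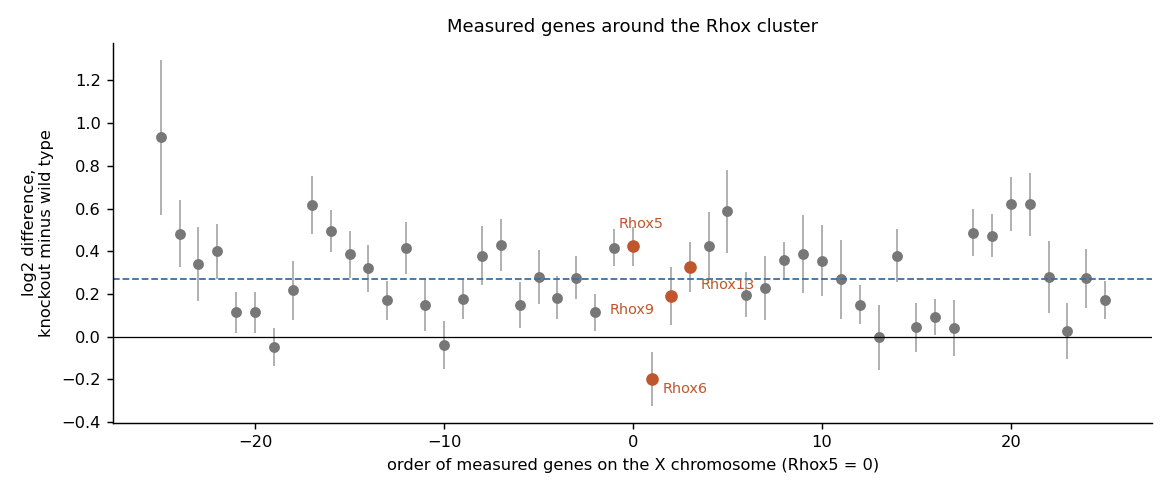
Log2 difference, knockout minus wild type, with its limma standard error (vertical axis) for 25 measured genes on each side of Rhox5, in their order on the X chromosome (horizontal axis, a count of genes). The dashed line is the X chromosome median of 0.27; Rhox5, Rhox9 and Rhox13 sit among their neighbours and Rhox6 is the lowest point at -0.20.

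Genes of Sertoli cells, where Rhox5 is made, had a median difference close to that of Rhox5, with a wide spread. All 17 measured genes of a 19-gene Sertoli list were above 0, between 0.06 and 0.71, with a median of 0.39. In limma 0 of them passed, against 0.137% of all genes, and 11 had an unadjusted p under 0.05 with the higher level in knockout, against 8.58% of all genes. For 12 of the 17 the groups did not overlap with knockout higher, against 9.92% of all genes. The 16 autosomal genes of the list had a median of 0.38. The median of the list was 0.30 within the higher 18S set and 0.355 within the lower. With all probe sets of a gene averaged it was 0.28. Averaged per array, the list stood at 8.28 to 8.32 in the wild-type testes and at 8.57 to 8.73 in the knockouts. Rhox5 minus this mean was 0.56 to 0.62 in wild type and 0.62 to 0.70 in knockout, with slightly overlapping groups, and moved by 0.07. Rhox13, a germ cell gene, minus the same mean moved by -0.03, with overlapping groups, so this closeness was not particular to Rhox5. The part of the Sertoli-wide difference in that of Rhox5 was not tested. Cst12, a cystatin of Sertoli cells, differed by 0.58 (SE 0.11), Inhbb, an inhibin subunit, by 0.41 (SE 0.08; 0.15 on its other probe set), and Fshr, the receptor for follicle-stimulating hormone, by 0.45 (SE 0.09).

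Other genes that androgen drives in Sertoli cells had a median of 0.42, the difference of Rhox5 itself. It was 0.30 within the higher 18S set and 0.51 within the lower. All 6 of the list were above 0, between 0.26 and 0.52, and 0 passed in limma, against 0.137% of all genes. All 6 had an unadjusted p under 0.05, against 8.58% of all genes, and groups that did not overlap, against 9.92%. All 6 are autosomal, and the brighter X chromosome genes had a median of 0.36. This list, like the others, was chosen with earlier results of these data known. Eppin, a protease inhibitor that coats sperm, differed by 0.52 (SE 0.12). The dopamine receptor gene Drd4 differed by 0.49 (SE 0.13; 0.24 on its other probe set) and the serpin gene Serpina5 by 0.43 (SE 0.11). Rhox5 minus the mean of this list averaged 0.91 ± 0.06 on wild-type arrays and 0.92 ± 0.05 on knockout arrays (SD, n = 3 each), a move of 0.01. Leydig cells make the androgen. All 5 measured of 8 Leydig genes were above 0, with a median of 0.28, which was -0.09 within the higher 18S set and 0.35 within the lower. The median was 0.05 without knockout 2, 0.48 without knockout 1 and 0.18 without wild type 1. In limma 0 passed and 2 had an unadjusted p under 0.05 with the higher level in knockout, against 8.58% of all genes. The steroid enzyme gene Hsd3b1 differed by 0.56 (SE 0.12), the cholesterol transporter gene Star by 0.49 (SE 0.18) and the side-chain cleavage gene Cyp11a1 by 0.28 (SE 0.24), while the other Cyp11a1 probe sets both differed by 0.04.

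Regulators and reported targets of Rhox5 had a median of 0.17, which was 0.07 without knockout 1, and 0.08 and 0.04 within the higher and lower 18S sets. Of 6 measured genes, 4 were above 0. None passed in limma, where 0 had an unadjusted p under 0.05, against 8.58% of all genes higher and 8.72% lower. Adipor2, an adiponectin receptor, differed by 0.21 (SE 0.09), Gabpa, an ETS factor, by 0.24 (SE 0.13) and Ins2, an insulin gene, by 0.27 (SE 0.15), on a probe set of a type that can bind related transcripts. The second probe sets of Adipor2 and Gabpa differed by -0.19 and -0.11. Epididymis also expresses Rhox5, and its markers were dim: 9 genes averaged 3.83 to 3.99 on the wild-type arrays and 3.86 to 4.03 on the knockout arrays. Their median difference was 0.05, which was -0.08 without knockout 1, and 0.21 and -0.175 within the higher and lower 18S sets. Of these 9 genes 0 passed in limma and 0 had an unadjusted p under 0.05, against 8.58% of all genes higher and 8.72% lower. Cst11 differed by -0.12, Rnase10 by 0.21 and Spink12 by 0.13.

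Around Rhox13, a list of X-linked spermatogonial genes had a median of 0.27 and a general list of spermatogonial genes one of 0.09. All 11 measured X-linked genes were above 0, and their median equalled that of the whole X chromosome to 2 decimals. In limma 0 passed. At an unadjusted p under 0.05, 6 were higher, against 8.58% of all genes and 46.0% of the X chromosome genes. The groups did not overlap for 5, against 9.92% of all genes and 41.6% of the X chromosome genes. Tex13a differed by 0.58 (SE 0.08, adjusted p = 0.0683 in limma), the RNA export factor gene Nxf3 by 0.52 (SE 0.08) and the MAGE family gene Magea5 by 0.85 (SE 0.23). Rhox13 minus the mean of this list averaged 0.47 ± 0.10 on wild-type arrays and 0.44 ± 0.13 on knockout arrays (SD, n = 3 each). In the general list 7 of 11 genes were above 0. The median of this list was -0.01 without knockout 3, 0.02 without wild type 1, and -0.13 and 0.08 within the higher and lower 18S sets. At an unadjusted p under 0.05 it held 0 higher and 1 lower gene, against 8.58% and 8.72% of all genes, and 0 passed in limma. Lin28a, an RNA-binding protein of undifferentiated spermatogonia, differed by -0.43 (SE 0.09), Gfra1, the GDNF receptor, by 0.22 (SE 0.10) and Zbtb16 by -0.26 (SE 0.15). Other probe sets of Gfra1 differed by 0.13 and -0.10, and of Zbtb16 by 0.25 and -0.05. Rhox13 minus the mean of the general list was 0.50 to 0.57 in wild type and 0.75 to 0.94 in knockout, without overlap. The part of the chromosome-wide difference in that of Rhox13 was not tested.

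**Figure D3:**
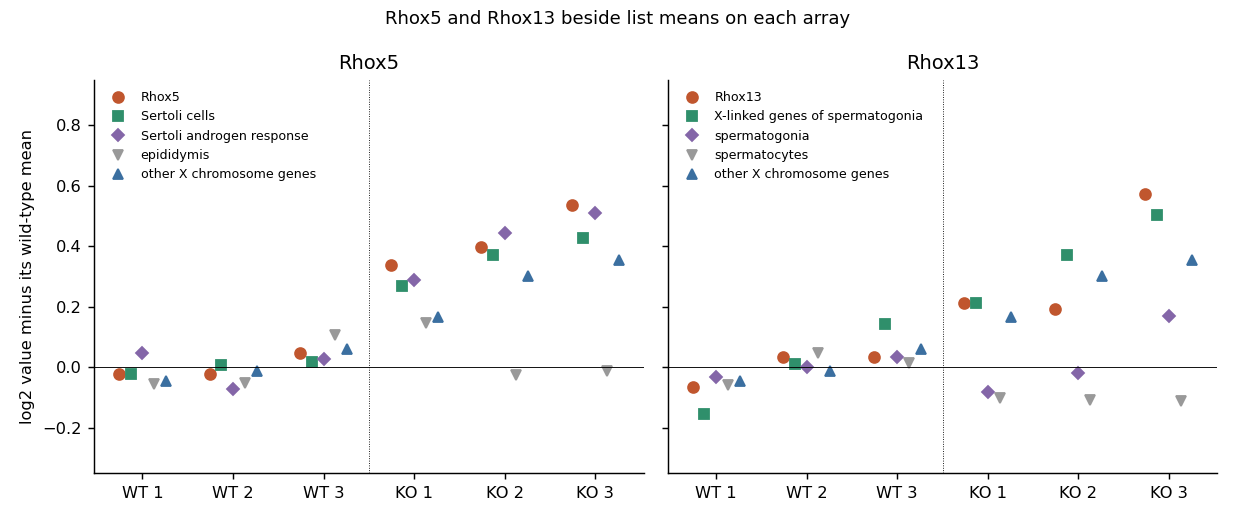
Value of Rhox5 (left) and Rhox13 (right) and mean of each gene list on each array, minus the mean of the 3 wild-type arrays (vertical axis, log2), with arrays along the horizontal axis (WT wild type, KO knockout). On knockout 3, Rhox5 and the androgen-driven Sertoli genes stand highest on the left, and Rhox13 and the X-linked spermatogonial genes on the right, while epididymis, spermatogonial and spermatocyte means lie lower.

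Lists of later germ cells and of retinoic acid genes had medians between -0.12 and 0.02. The spermatocyte list had a median of -0.12 over 12 genes, -0.0575 and -0.125 within the higher and lower 18S sets, with 0 past the threshold in limma. At an unadjusted p under 0.05, 4 were lower, against 8.72% of all genes, and 0 higher. Aurkc, a meiotic kinase, differed by -0.42 (SE 0.09), Spo11, which makes meiotic DNA breaks, by -0.29 (SE 0.08) and the cyclin gene Ccna1 by -0.28 (SE 0.10). The spermatid list had a median of 0.02 over 12 genes, -0.0033 without wild type 1, with 0 past the threshold in limma. It held 0 genes at an unadjusted p under 0.05, against 8.58% of all genes higher and 8.72% lower. In it Catsper1 differed by -0.20, Gapdhs by -0.12 and Acrv1 by 0.08. Retinoic acid and translation genes around Rhox13 had a median of 0.005 over 8 genes, with 0 past the threshold in limma. Of the 8, 1 was higher at an unadjusted p under 0.05, against 8.58% of all genes, and 0 lower. This gene was Aldh1a1, a retinal dehydrogenase of Sertoli cells, which differed by 0.55 (SE 0.12). Stra8, a target of retinoic acid in germ cells, differed by 0.28 (SE 0.19) and Dazl by 0.09 (SE 0.11).

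Genes whose products silence chromatin, a process known to keep Rhox genes off in other tissues, had a median of -0.14. It was -0.09 without wild type 1 and also without knockout 3, -0.08 with the 18S sets as a block and -0.06 within the lower 18S set. Of 10 measured genes, 6 were below 0, 3 were lower at an unadjusted p under 0.05, against 8.72% of all genes, and 0 passed in limma. Uhrf1, which guides maintenance DNA methylation, differed by -0.34 (SE 0.11), Dnmt3l, a cofactor of germline DNA methylation, by -0.26 (SE 0.09) and the H3K9 methyltransferase gene Setdb1 by -0.21 (SE 0.09). The other Setdb1 probe sets differed by -0.63 and -0.40. The 13 measured homeobox genes outside the Rhox family had a median of 0.07, -0.01 without wild type 1, with 0 past the threshold in limma and, at an unadjusted p under 0.05, 1 above and 1 below. Emx2 differed by -0.52 (SE 0.15), Nobox by 0.38 (SE 0.13) and Meis1 by 0.21 (SE 0.10), with other Meis1 probe sets at 0.04 and -0.05. Markers of other somatic cells of the testis were looked at too. Of 9 myoid and stroma genes 8 were above 0, with 0 past the threshold in limma and 4 higher at an unadjusted p under 0.05, against 8.58% of all genes. Their median was 0.40, which was 0.05 within the higher 18S set and 0.79 within the lower. Without wild type 3 it was -0.06, so 1 array decided its direction, and with all probe sets of a gene averaged it was 0.16. All 6 macrophage genes were above 0, with 0 at an unadjusted p under 0.05 in limma, against 8.58% of all genes higher and 8.72% lower. Their median of 0.28 was -0.09 and 0.33 within the higher and lower 18S sets, 0.15 without knockout 3 and 0.45 without knockout 1.

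**Figure D4:**
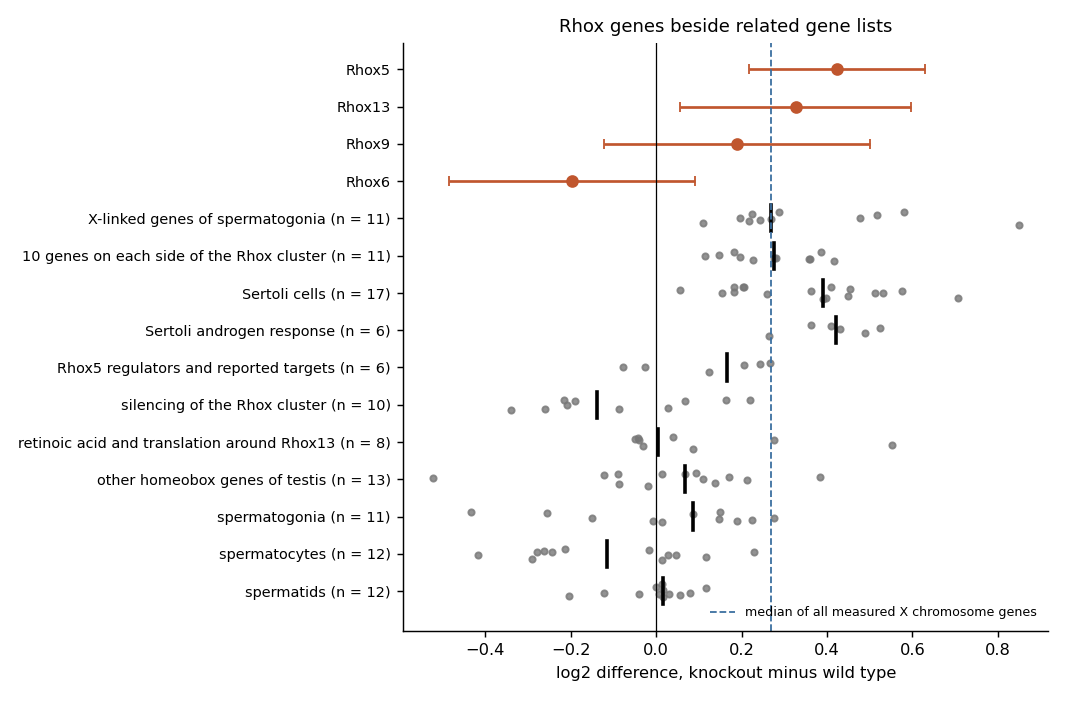
Log2 difference, knockout minus wild type (horizontal axis), of each Rhox gene with its 95% confidence interval from limma and of the genes of 11 lists (grey points, black bar the list median, n the measured genes). The dashed line is the X chromosome median of 0.27; the Sertoli lists, at medians of 0.39 and 0.42, and Rhox5, at 0.42, lie to its right, and the medians of the spermatogonia, spermatocyte and spermatid lists lie between -0.12 and 0.09.

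The genes whose values followed each Rhox gene most closely were found by Pearson correlation over the 6 arrays, against up to 11713 genes with 1 symbol and a mean above the median. With so few arrays high values are common, and 193 genes reached r over 0.95 with Rhox5, so these are descriptions. For Rhox5 the closest were Prr15 (r = 0.995), the Sertoli cell gene Cst12 (r = 0.995) and X-linked Dynlt3, a dynein light chain (r = 0.994). For Rhox13 they were Ext1 (r = 0.992), Rnf217 (r = 0.990) and Rnf213 (r = 0.987), with 41 genes over 0.95. For dim Rhox9 they were Sh3pxd2a, Usp14 and Kcnj11 (r = 0.986 to 0.987), and for Rhox6 Prpf39, Coa4 and Polr1e (r = 0.966 to 0.979).

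The Rhox differences kept their sign under every alternative that gave a value, and Rhox5 varied least in proportion to its size. Over 17 alternatives Rhox5 ran from 0.36 to 0.47 and Rhox13 from 0.20 to 0.39. Over the 16 that held them, Rhox9 ran from 0.02 to 0.52 and Rhox6 from -0.42 to -0.07. Rhox5 passed in 1 of the 15 alternatives with a test, array weights, at an adjusted limma p of 0.0257, where 1654 probe sets passed as higher. Its adjusted p in the 15 ran from 0.0257 to 0.529. Rhox13 passed in 0 of 15, and Rhox9 and Rhox6 in 0 of 14.

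**Figure D5:**
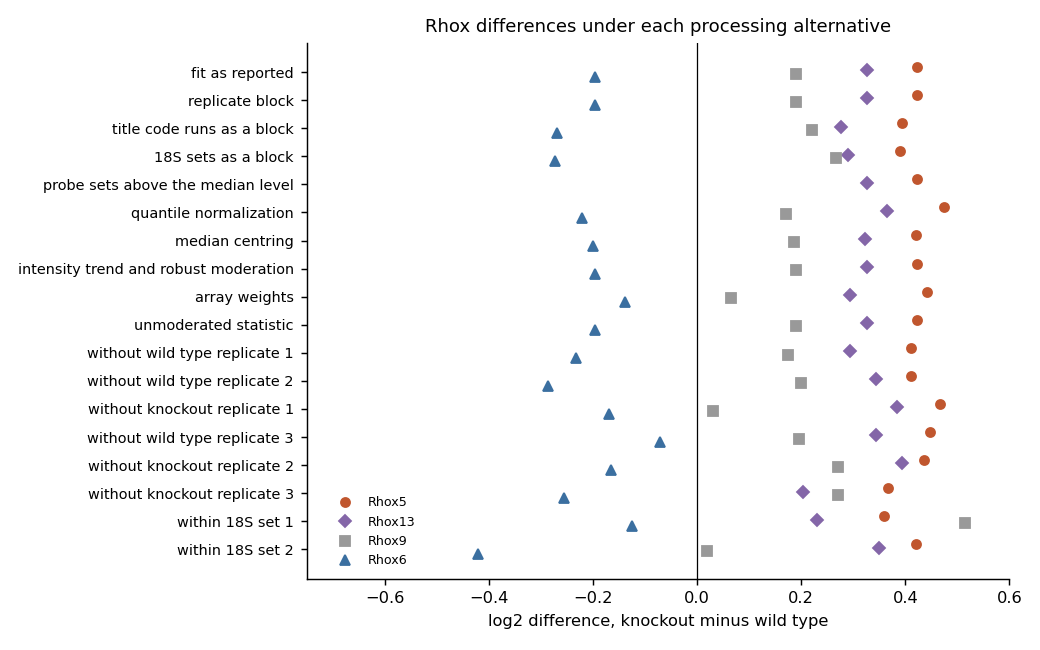
Log2 difference, knockout minus wild type (horizontal axis), of the 4 Rhox genes under the reported fit and each processing alternative (vertical axis). Rhox5 stays between 0.36 and 0.47, and Rhox9 is at 0.03 without knockout replicate 1 and 0.02 within the lower 18S set (set 2).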

How the data were processed

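Whole-testis total RNA of wild-type and Phf13 knockout mice was hybridised to 3 Affymetrix arrays per genotype. The deposited file holds log2 expression values, 1 per probe set. Per the submitters' processing notes they come from Affymetrix Expression Console (version 1.4.1). The scale was read from the values; the sources used here do not state the summarization or the normalization. Without the 64 controls, 45037 probe sets were tested, with no filter. Groups and replicate numbers came from the sample titles. Differences were fitted with lmFit and eBayes of limma 3.58.1 in R 4.3.3 on genotype (two-sided), adjusted by Benjamini-Hochberg, and called under 0.05. In simulated data with 45037 probe sets, 16% of planted changes of 0.5 and 68% of changes of 1 were recovered. The simulated noise was independent between probe sets and arrays, with spreads shuffled between probe sets, so recovery on the real arrays may differ. The number of arrays limits the precision.

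Symbols came from the platform annotation, used where a probe set had 1 symbol (34945; 932 had several and 9160 none). Of these 34741 were found by gene identifier in RefSeq's table of assembly GRCm38.p6, which gave chromosome and gene order. For lists, the probe set with the highest mean stood for each of 18193 genes. The Rhox genes and the lists were chosen with earlier results of these data known. Every Rhox probe set was named, and from each list the 3 genes with the smallest p (at most; macrophages and myoid cells as medians only), and for likeness the 3 genes with the highest correlation. No array repeated another (root mean square difference of at least 0.17). Alternatives were blocks for replicate number, title code run and 18S set, a level filter, quantile normalization, median centring, an intensity trend, array weights, no moderation, and each array left out in turn. The lower 18S set is also 1 of the title code runs, so these blocks partly coincide.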

Additional observations from a re-analysis of the deposited data

How the results depend on the processing

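The counts over the whole table, 25 probe sets higher and 20 lower, depended on the fit. They were 12 and 4 with the runs of title codes as a block, 66 and 44 with an intensity trend and robust moderation, 1654 and 1532 with array weights, and 0 and 1 with the unmoderated statistic. With only probe sets above the median level, which tests fewer, 42 passed as lower. Leaving out 1 array in turn gave 8 to 178 higher and 4 to 998 lower. The extremes came without wild type 2 (8 and 4), without knockout 3 (4 lower) and without wild type 3 (178 and 998), and each of the 6 arrays, left out, moved a count by over 1.5 times. In none of these fits, array weights apart, did a Rhox gene pass, and there Rhox5 did, at 0.44 (limma adjusted p = 0.0257). The causes were not tested. With the replicate number as a block, 6 passed as lower and 22 as higher, and Rhox5 had a limma adjusted p of 0.122. Arrays with the same number had deviations correlated at 0.26, 0.07 and 0.12, so the numbers were not taken as pairs, and not every array correlated best with its own number. Rhox9 was 0.52 within the higher 18S set and Rhox6 was -0.42 within the lower. Leaving out 1 array in turn, Rhox5 ran from 0.37 to 0.47, Rhox13 from 0.20 to 0.39, Rhox9 from 0.03 to 0.27 and Rhox6 from -0.29 to -0.07. Rhox9 and Rhox6 are below the level filter and gave no value under it. The median of the cluster's neighbours was 0.18 without knockout 3, and that of the Rhox5 regulators and targets 0.04 with all probe sets of a gene averaged.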
